A study of Homo sapiens with 4 samples.

Results

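Albumin, antitrypsin and 8 further plasma carriers and protease inhibitors were followed through 4 human hepatoma cultures. The 10 genes, taken by symbol from the gene count of each culture, were ALB, SERPINA1, SERPINA3, TTR, RBP4, AMBP, AHSG, FETUB, A1BG and GC, out of 16370 genes listed in at least 1 culture. All 10 were listed in every library, and none was removed from the comparisons within a parental line. The study sequenced RNA of Hep3B and Huh7, established human hepatoma lines obtained from ATCC and called hepatic cancer (HCC) cells, and of Hep3B-C and Huh7-C, the stem-like cultures grown from them and called hepatic cancer stem cells (HCSCs). It asked which genes differed between each HCSC culture and its parental line. Every culture was represented by 1 library, no allele or agent was given for any of them, and each HCSC culture stood for stem-like cells of only 1 line. With 1 library per culture, a test within a pair compared 2 libraries and covered sampling noise, and the spread between separate cultures was not measured. In bulk RNA, fewer cells of a kind could not be told apart from less RNA per cell.

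Hepatocytes make most proteins of blood plasma and release them through the secretory pathway, so the mRNAs of these carriers rank among the most abundant of adult liver and serve as signs of hepatocyte differentiation. Albumin, the product of ALB, keeps up the colloid pressure of plasma and carries fatty acids, bilirubin and drugs. SERPINA1 encodes antitrypsin, the main inhibitor of neutrophil elastase in plasma, and SERPINA3 encodes antichymotrypsin, an inhibitor of cathepsin G that rises in acute inflammation. TTR (transthyretin) and RBP4 (retinol-binding protein) travel as a complex, the first also carrying thyroxine and the second carrying retinol from liver stores. AMBP encodes a precursor that is cleaved into alpha-1-microglobulin and bikunin. AHSG (fetuin-A) keeps calcium phosphate from precipitating, FETUB (fetuin-B) is its relative, GC is the vitamin D-binding protein, and A1BG is a plasma glycoprotein of the immunoglobulin superfamily.

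The total gene count ranged from 2896418 in Hep3B to 4641927 in Hep3B-C, so that 3 counts corresponded to between 0.646 and 1.04 CPM (counts per 1000000 of the total). The hepatoma label was checked against 7 hepatocyte markers, of which ALB and TTR belong to the 10 genes. All 7 were present in each culture, but TTR had only 13 counts in Huh7 and in Huh7-C. The summed CPM of the 7 was 41977 in Hep3B and 34846 in Hep3B-C, against 9604 in Huh7 and 9470 in Huh7-C. PTPRC and CD3E of the leukocyte, DCN of the fibroblast and CDH5 of the endothelial markers were not listed in any library, and KRT7, VWF and KDR had at most 2 counts. The summed CPM of the 4 cholangiocyte markers was 58.8 to 280 in HCC cells and 94.6 to 110 in HCSCs, that of the fibroblast and stellate markers 10.7 to 45.0 and 9.91 to 15.5, that of the endothelial markers 3.11 to 3.97 and 2.80 to 21.5, and that of the leukocyte markers 186 to 312 and 191 to 449. In Hep3B-C, CD68 (289 to 1254 counts) was up-regulated, and KRT19 (212 to 88 counts) and SOX9 (600 to 349 counts) were down-regulated. In Huh7-C, CFTR (0 to 80 counts), COL3A1 (0 to 58 counts) and PECAM1 (17 to 93 counts) were up-regulated and PDGFRB (186 to 2 counts) was down-regulated, and the part of such cells in the values of the 10 genes was not tested.

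Of the 10 genes, 8 had a promoter in the RefSeq table of the GRCh38.p14 assembly, in 12 windows of 300 bases that ran from 250 bases before a transcription start to 50 bases after it. TTR and GC had no entry. Each window was searched on both strands for GTTAAT, a short element present in many liver promoters, for CAAAGTCCA, a sequence of the type bound by HNF4, and for TATAAA, the TATA box. Matches overlapped only in RBP4, where TATAAA occurred on both strands. The windows of the 3 genes that took the largest shares of the Hep3B-C library are shown, since they held most of the summed count of the set there, with the matched letters in capitals. They lie at chr4:73404037-73404336 on the plus strand (ALB), at chr14:94388553-94388852 on the minus strand (SERPINA1, the downstream one of the starts in the table) and at chr3:186612810-186613109 on the plus strand (AHSG).
ALB: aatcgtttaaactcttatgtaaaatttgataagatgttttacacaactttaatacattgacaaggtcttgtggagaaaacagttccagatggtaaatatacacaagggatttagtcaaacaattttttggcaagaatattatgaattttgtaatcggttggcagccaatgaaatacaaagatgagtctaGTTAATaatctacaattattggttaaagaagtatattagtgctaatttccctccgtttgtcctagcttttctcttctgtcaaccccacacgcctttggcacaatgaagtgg
SERPINA1: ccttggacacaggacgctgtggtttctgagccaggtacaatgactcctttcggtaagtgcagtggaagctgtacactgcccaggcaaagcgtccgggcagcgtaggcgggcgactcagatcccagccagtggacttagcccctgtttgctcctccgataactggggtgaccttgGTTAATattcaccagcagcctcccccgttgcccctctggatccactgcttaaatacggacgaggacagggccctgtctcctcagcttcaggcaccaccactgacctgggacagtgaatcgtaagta
AHSG: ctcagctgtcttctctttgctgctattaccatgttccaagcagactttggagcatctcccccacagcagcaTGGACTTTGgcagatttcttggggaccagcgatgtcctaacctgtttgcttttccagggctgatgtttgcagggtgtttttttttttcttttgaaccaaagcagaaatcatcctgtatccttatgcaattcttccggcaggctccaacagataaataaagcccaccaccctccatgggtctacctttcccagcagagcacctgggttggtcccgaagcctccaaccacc
GTTAAT lay 61 bases upstream of the ALB start and 76 bases upstream of the downstream SERPINA1 start, and in no other of the 12 windows. Over all 35116 windows of the table, 6.88% held it. CAAAGTCCA was found on the minus strand of the AHSG window, 179 bases upstream of the start, against 0.384% of all windows. TATAAA was found in 4 of the 12 windows, all those of RBP4 and the upstream one of FETUB, against 11.5% of all windows. Overlapping RBP4 windows shared a site, which was counted in each of them. These matches are a description of the letters and not of bound sites.

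Albumin separated the lineages by its level, and antitrypsin was abundant in all 4 cultures. ALB had 56598 counts in Hep3B and 85731 in Hep3B-C, against 482 in Huh7 and 1156 in Huh7-C, which corresponded to 19541, 18469, 106 and 267 CPM. Both libraries of the Hep3B lineage were thus far above both of the Huh7 lineage. SERPINA1 had 29292 counts in Hep3B and 124896 in Hep3B-C, against 183846 in Huh7 and 74907 in Huh7-C, or 10113, 26906, 40517 and 17284 CPM. It held the largest count of any gene in Hep3B-C, Huh7 and Huh7-C, and the lineages overlapped. Per length, in RPKM (the CPM divided by the transcript length in kilobases), the antitrypsin level was 0.329 times the albumin level in Hep3B and 0.926 times in Hep3B-C, but 242 times in Huh7 and 41.2 times in Huh7-C. Albumin therefore led the 10 genes per length in the Hep3B lineage, and antitrypsin led them in the Huh7 lineage.

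**Figure D1:**
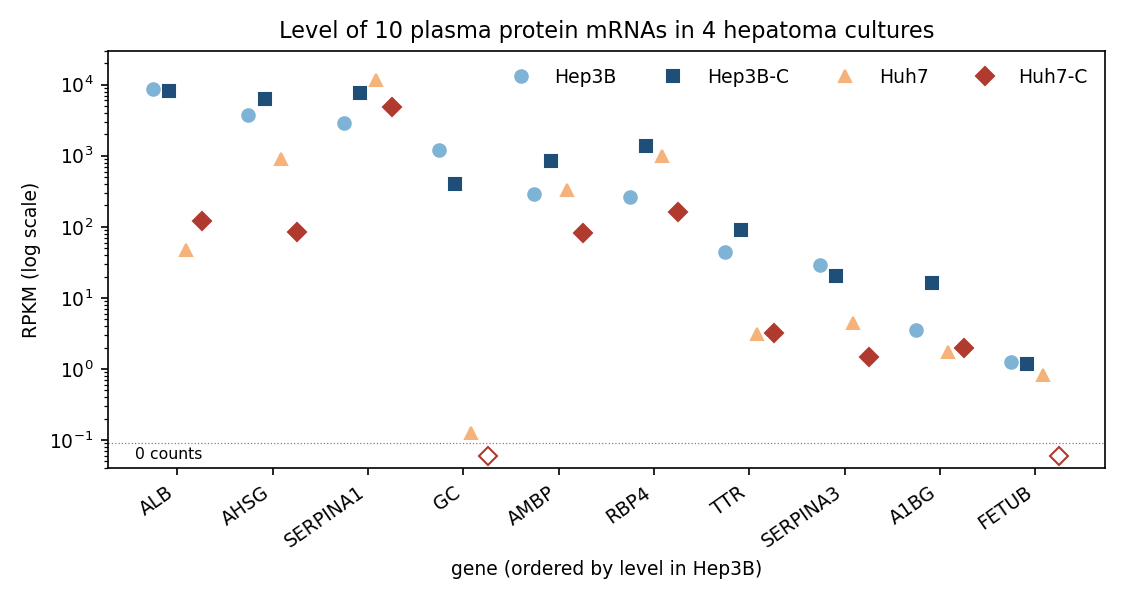
Level of the 10 mRNAs in RPKM (vertical log axis) in the 4 cultures, 1 point per library, with genes ordered by their Hep3B level. The ALB points of the Hep3B lineage stand at 8704 and 8227 RPKM and those of the Huh7 lineage at 47.3 and 119, while the 4 SERPINA1 points lie between 2863 and 11471. Open diamonds below the dotted line mark the libraries with 0 counts (GC and FETUB in Huh7-C).

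SERPINA3 was far below SERPINA1 in all cultures, with 135 counts in Hep3B and 152 in Hep3B-C, against 32 in Huh7 and 10 in Huh7-C. Among all genes per length it ranked 2391 in Hep3B and 3189 in Hep3B-C, but 7450 in Huh7 and 10115 in Huh7-C. Per length, antitrypsin exceeded antichymotrypsin by 97.7 times in Hep3B and by 3372 times in Huh7-C. The retinol carrier and its partner were also unequal. RBP4 had 716 counts in Hep3B and 5908 in Hep3B-C, against 4169 in Huh7 and 658 in Huh7-C, whereas TTR had 119, 390, 13 and 13 counts in the same order. The RBP4 level per length was 6.0 times that of TTR in Hep3B and 15.1 times in Hep3B-C, but 320 times in Huh7 and 50.5 times in Huh7-C.

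Among the remaining carriers, AHSG had 17280 counts in Hep3B and 45691 in Hep3B-C, against 6396 in Huh7 and 577 in Huh7-C, the last far below the other 3 libraries. AMBP, the microglobulin and bikunin precursor, had 1211, 5605, 2144 and 503 counts in that order, with the lineages overlapping. GC, the vitamin D carrier, had 6167 counts in Hep3B and 3271 in Hep3B-C, but 1 in Huh7 and 0 in Huh7-C, where a count of 0 allowed up to 3 counts, or 0.692 CPM. Its mRNA was detected as an abundant transcript in the Hep3B lineage and was at or near 0 in the Huh7 lineage. A1BG stayed low, with 18 counts in Hep3B and 133 in Hep3B-C, against 14 in Huh7 and 15 in Huh7-C. FETUB, the relative of AHSG, had 6, 9, 6 and 0 counts, too few to order the libraries.

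When the 4 libraries were ordered by CPM, neighbours in the order had separate exact 95% Poisson intervals for ALB, SERPINA1, SERPINA3, RBP4, AMBP and AHSG. These intervals covered counting error only. TTR did not separate Huh7-C from Huh7, GC did not separate Huh7 from Huh7-C, A1BG did not separate Hep3B, Huh7-C and Huh7, and FETUB separated no neighbours. RBP4 and AMBP shared 1 order, namely Hep3B-C, Huh7, Hep3B and Huh7-C from high to low. For SERPINA1 the order was Huh7, Hep3B-C, Huh7-C and Hep3B.

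Together the 10 genes took 3.85% of the library in Hep3B (95% Wilson interval 3.83 to 3.87%), 5.86% in Hep3B-C (5.83 to 5.88%), 4.34% in Huh7 (4.33 to 4.36%) and 1.80% in Huh7-C (1.78 to 1.81%). The summed share was thus higher in the HCSC library than in the HCC library of the Hep3B pair and lower in that of the Huh7 pair. ALB made up 50.7% of the summed count in Hep3B and 31.5% in Hep3B-C, but only 0.245 and 1.49% in the Huh7 lineage. SERPINA1 made up 26.3% in Hep3B and 46.0% in Hep3B-C, and 93.3% and 96.2% in the 2 libraries of the Huh7 lineage. Without ALB and SERPINA1, a calculation chosen after seeing the data, the other 8 genes took 0.886%, 1.32%, 0.282% and 0.0410% of the 4 libraries, with the same direction in each pair.

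**Figure D2:**
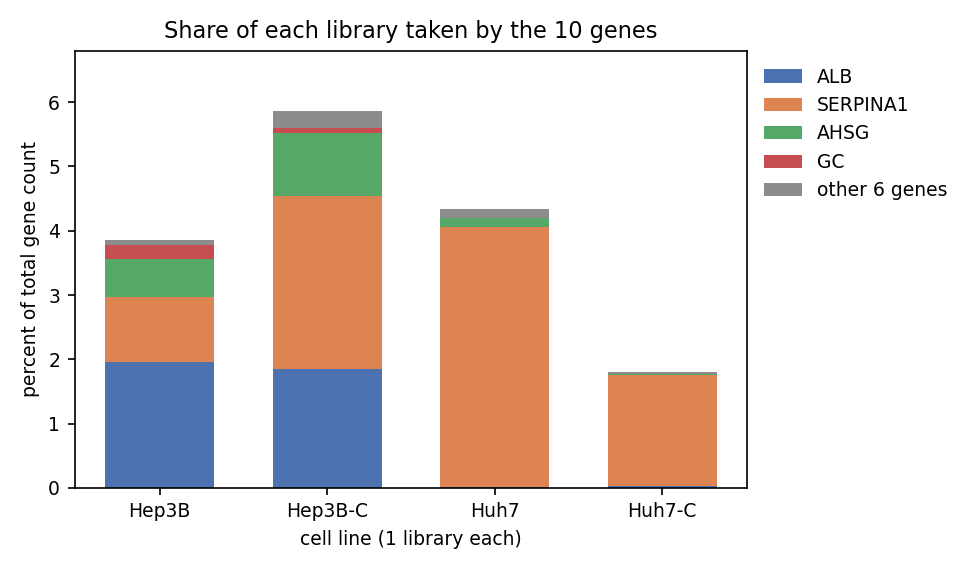
Percent of the total gene count taken by the 10 genes (vertical axis) in each culture, stacked by gene, with 1 library per bar and FETUB, A1BG, AMBP, RBP4, SERPINA3 and TTR summed in grey. The bars reach 3.85, 5.86, 4.34 and 1.80%, and the ALB segment of 1.95 and 1.85% in the Hep3B lineage shrinks to 0.0106 and 0.0267% in the Huh7 lineage.

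In Hep3B-C compared with Hep3B, antitrypsin, transthyretin, retinol-binding protein, AMBP and A1BG were up-regulated and the vitamin D carrier was down-regulated, whereas albumin stayed at nearly the same share. A gene was called where its log2 fold-change reached 1 in either direction and its Benjamini-Hochberg FDR was at most 0.01 in the test of Audic and Claverie, which takes both counts as Poisson samples of their libraries. By this rule 5 of the 10 genes were up-regulated and 1 was down-regulated, while over all 15480 genes of the pair 13.2% were up-regulated and 30.4% down-regulated. The median log2 fold-change of the 10 genes was 0.88, and that of all genes was -0.68.

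RBP4 rose 5.15-fold (95% exact interval 4.76 to 5.57), and its partner TTR rose 2.04-fold (1.66 to 2.53). SERPINA1 rose 2.66-fold (2.63 to 2.69) and AMBP 2.89-fold (2.71 to 3.08). The intervals of these inhibitor mRNAs were close to each other without overlapping. A1BG rose 4.61-fold (2.81 to 8.02) from 18 counts, so that its interval was the widest of the 5. GC was 3.02-fold lower in Hep3B-C (2.90 to 3.15). The Audic-Claverie FDR was 2.7e-12 for TTR, 2.8e-12 for A1BG and 1.8e-298 for AMBP, and was too small to be represented for RBP4, SERPINA1 and GC.

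The other 4 genes were not called. ALB had a log2 fold-change of -0.08 (Poisson SE 0.01, n = 1 library per culture), which differed from 0 in the test (Audic-Claverie FDR 1.6e-24) but was far below the size threshold. AHSG had a log2 fold-change of 0.72 (SE 0.01), a 1.65-fold higher CPM (1.62 to 1.68). SERPINA3 had a log2 fold-change of -0.51 (SE 0.17) with an FDR of 0.0052, and FETUB one of -0.13 (SE 0.73) with an FDR of 0.89.

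The scaling of this pair and the base composition of the transcripts moved with these values. With edgeR's TMM library sizes every log2 fold-change of the pair rose by 0.60, the split of calls over all genes went from 2043 up and 4708 down to 3348 up and 2799 down, and AHSG became up-regulated while GC fell just short of the threshold. ALB (0.51), SERPINA3 (0.09) and FETUB (0.46) changed sign under TMM. Across the genes of the pair, the log2 fold-change had a Spearman correlation of 0.632 with the G+C content of the transcript and of -0.433 with its length, a description over genes that are not independent. After both trends were removed by a smooth fit, RBP4 (1.23) and TTR (1.07) remained up-regulated, GC (-1.36) remained down-regulated and SERPINA3 (-1.50) became so. In that fit SERPINA1 (0.88), A1BG (0.35) and AMBP (0.00015) were no longer called, ALB was at 0.56 and AHSG at -0.54, and the part of base composition in the measured values was not tested further.

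**Figure D3:**
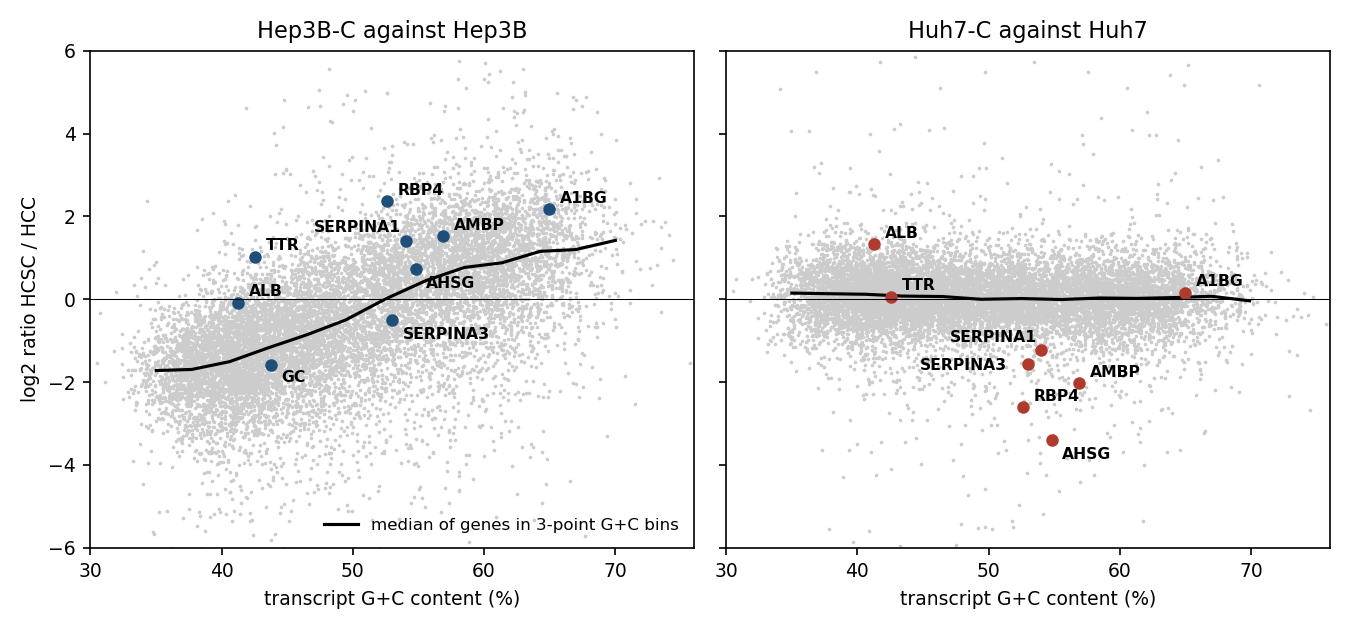
Log2 ratio of HCSC to HCC (vertical axis) against G+C content of the transcript in percent (horizontal axis) for genes with at least 20 counts in a pair (grey), with the 10 genes in colour (9 plotted on the left, 8 on the right) and the median of 3-point bins as a line. The line climbs with G+C content in the Hep3B pair and is nearly flat in the Huh7 pair (Spearman -0.0602), where AHSG, RBP4, AMBP, SERPINA3 and SERPINA1 lie below it and ALB above it. Outside the drawn range lie 55 genes on the left and 17 on the right.

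In Huh7-C compared with Huh7, the set moved mostly downward, with albumin as the exception. Here 5 genes, AHSG, RBP4, AMBP, SERPINA3 and SERPINA1, were down-regulated and ALB was up-regulated, while over all 14807 genes of the pair 4.15% were down-regulated and 4.19% up-regulated. The median log2 fold-change of the 10 genes was -1.54, against 0.07 for all genes. It fell midway between SERPINA3 and GC, the latter on 1 and 0 counts, and was -1.15 with 5 added to each count. AHSG showed the largest decrease of the 5 and was 10.6-fold lower (9.72 to 11.5). RBP4 was 6.05-fold lower (5.57 to 6.58) and AMBP was 4.07-fold lower (3.69 to 4.50). The inhibitors SERPINA3 and SERPINA1 were 3.06-fold (1.47 to 6.97) and 2.34-fold lower (2.32 to 2.36). ALB was 2.51-fold higher (2.26 to 2.80), from a level in Huh7 at which it ranked 1697 among all genes per length to rank 670. The Audic-Claverie FDR was 0.0042 for SERPINA3, 7.6e-69 for ALB and 1.9e-221 for AMBP, and was too small to be represented for AHSG, RBP4 and SERPINA1.

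The remaining 4 genes had low counts in this pair. TTR had 13 counts in both libraries, A1BG had 14 and 15, FETUB had 6 and 0 without passing the test (Audic-Claverie FDR 0.053), and GC had 1 and 0. The exact 95% interval of the HCSC to HCC ratio was 0.447 to 2.45 for TTR and 0.505 to 2.51 for A1BG, so smaller differences than these were not detectable at this depth. Length was the larger trend here (Spearman 0.315), and with both trends removed SERPINA3, based on 32 and 10 counts, was no longer down-regulated (-1.36), while the other 5 calls held.

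**Figure D4:**
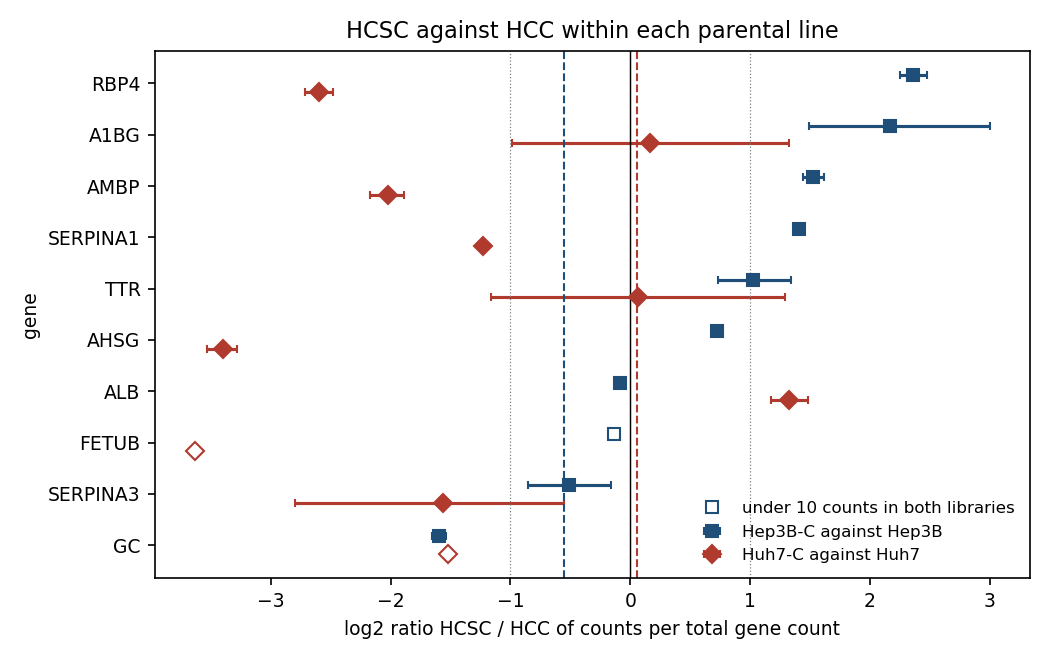
Log2 ratio of HCSC to HCC for each gene (horizontal axis) in the Hep3B pair (squares) and the Huh7 pair (diamonds), from counts per total gene count with 95% intervals of counting error; open symbols mark genes with under 10 counts in both libraries, dotted lines the threshold of 1 and dashed lines the median of all genes with at least 20 counts (-0.55 and 0.06). RBP4, AMBP and SERPINA1 lie beyond the threshold on opposite sides in the 2 pairs.

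Some of the carriers were therefore called in opposite directions in the 2 parental lines. SERPINA1, RBP4 and AMBP, 3 of the 10 genes, were up-regulated in Hep3B-C and down-regulated in Huh7-C, and 0.532% of the 13917 genes listed in both pairs did so, while 2.45% were called in opposite directions either way. The difference between the log2 fold-changes (Hep3B pair minus Huh7 pair) was 4.96 (SE 0.08) for RBP4, 3.55 (SE 0.08) for AMBP and 2.64 (SE 0.01) for SERPINA1. For AHSG it was 4.13 (SE 0.06), although AHSG was called in the Huh7 pair alone. Albumin had the opposite sign, with a difference of -1.41 (SE 0.08, FDR 2.9e-70 by the Poisson error of 4 counts). A1BG had a difference of 2.01 (SE 0.64, FDR 0.0035). For the other 4 of these genes the FDR was too small to be represented. All 6 passed an FDR of 0.01 and a difference of at least 1, and 39.9% of all genes did so.

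Of the 10 genes, 8 had the higher log2 fold-change in the Hep3B pair, the exceptions being ALB and GC. The share of all genes that did so was not computed, so this count is a description only. The differences of SERPINA3 (1.05, SE 0.54, FDR 0.084), TTR (0.96, SE 0.58, FDR 0.15), FETUB (3.50, SE 2.24, FDR 0.18) and GC (-0.08, SE 2.36, FDR 0.98) did not pass by the same Poisson error. With the trends in G+C content and length removed from both pairs, RBP4 differed by 3.54, AHSG by 2.67, SERPINA1 by 2.16, AMBP by 1.83 and ALB by -0.84, and A1BG by only 0.10. The test covered counting error of these 4 libraries and no variation between cultures.

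**Figure D5:**
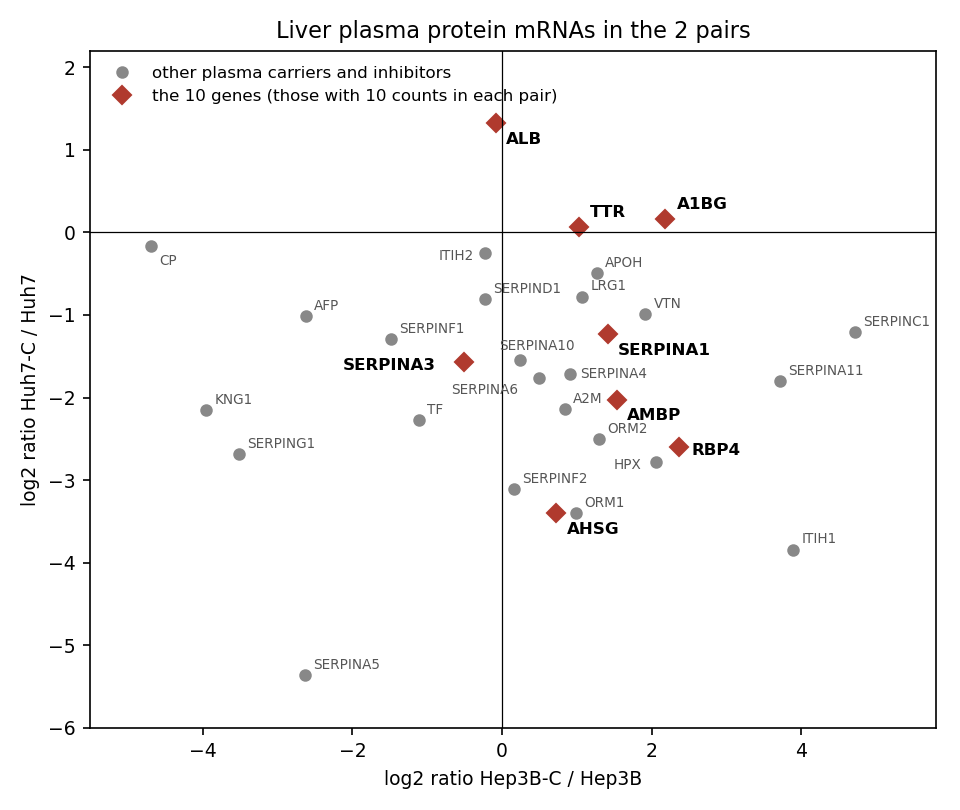
Log2 ratio of Hep3B-C to Hep3B (horizontal axis) against that of Huh7-C to Huh7 (vertical axis) for 8 of the 10 genes (diamonds) and 23 other plasma carriers and inhibitors (circles) that reached 10 counts in both pairs, 1 library per culture. All 23 circles lie below 0 on the vertical axis and 14 lie above 0 on the horizontal axis, and ALB, TTR and A1BG are the diamonds above 0 on the vertical axis.

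Across both parental lines no member of the set passed the comparison of HCSCs with HCC cells. In edgeR's quasi-likelihood test, blocked by parental line and left with 1 residual degree of freedom, 0 of the 9 genes that passed the count filter were called at an FDR of 0.05, 0 had an unadjusted p below 0.05, and DESeq2 called 0. FETUB was removed by the filter. Of all 11691 genes tested, 0.0342% were up-regulated and 0.0428% down-regulated. The 9 fitted log2 fold-changes ran from -1.35 for GC to 1.42 for A1BG. The mean of the log2 fold-changes of both pairs was near 0 for SERPINA1 (0.09), RBP4 (-0.12) and AMBP (-0.25), each of which had moved in opposite directions. Its median over the 10 genes was -0.18, between the pair medians of 0.88 and -1.54.

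More of the set was called between the lineages of the parental lines. Each lineage was 1 cell line, sampled as the parental culture and the HCSC culture grown from it. The adjusted p-values below therefore did not measure the spread between separate lines. In the same edgeR fit, 5 of the 9 tested genes, GC, ALB, TTR, AHSG and SERPINA3, were lower in the Huh7 lineage and none was higher, against 4.82% of all tested genes lower and 3.65% higher. ALB had a fitted log2 difference of -6.83 (edgeR adjusted p 1.3e-08), TTR of -4.33 (0.00034), AHSG of -4.16 (0.0028) and SERPINA3 of -3.24 (0.012). For GC the adjusted p was 5.8e-14, and its fitted size depended on the prior count, since the Huh7 lineage had 1 count in all. RBP4 (-0.60, adjusted p 0.92) and SERPINA1 (0.66, adjusted p 0.85) did not pass this edgeR test, and neither AMBP (-1.62, 0.53) nor A1BG (-2.09, 0.25) passed. In fits with lineage as the only term, which called 4 genes with all libraries (AHSG being lost), only GC was called without Huh7, and ALB and GC without Huh7-C.

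Taken pair by pair, ALB was 184-fold higher in Hep3B than in Huh7 (168 to 202) and 69.2-fold higher in Hep3B-C than in Huh7-C (65.3 to 73.4). AHSG was 4.23-fold higher in Hep3B than in Huh7 (4.11 to 4.36) but 73.9-fold higher in Hep3B-C than in Huh7-C (68.1 to 80.4), so the lineages stood further apart for fetuin-A in the HCSC cultures. GC was 9661-fold higher in Hep3B than in Huh7, with a counting interval from 1733 to 381657 because Huh7 had 1 count, and at least 1018-fold higher in Hep3B-C than in Huh7-C, computed against 3 counts in that library. TTR was 14.3-fold higher (8.07 to 27.7) in Hep3B and 28.0-fold higher (16.2 to 53.1) in Hep3B-C. For SERPINA1, RBP4 and AMBP the parental lines and the HCSC cultures were ordered differently. SERPINA1 was 4.01-fold higher in Huh7 than in Hep3B (3.96 to 4.06) but 1.56-fold higher in Hep3B-C than in Huh7-C (1.54 to 1.57). RBP4 was 3.72-fold higher in Huh7 than in Hep3B (3.43 to 4.03) but 8.38-fold higher in Hep3B-C than in Huh7-C (7.73 to 9.10), and AMBP 1.13-fold higher (1.05 to 1.21) but 10.4-fold higher (9.49 to 11.4).

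Other plasma carriers and inhibitors were read from a list of 34 genes. In Hep3B-C, 8 of the 32 listed were up-regulated and 7 down-regulated, against 13.2% and 30.4% of all genes of the pair, and the median log2 fold-change of the 26 with at least 10 counts was 0.51, against -0.58 for all genes with at least 10 counts. With the trends removed the median of the list was -0.23, against -0.48 for all genes with at least 10 counts. SERPINC1 (antithrombin, 3 to 147 counts), ITIH1 (a heavy chain that is joined to bikunin, 6 to 154 counts) and HPX (the heme carrier hemopexin, 50 to 335 counts) rose the most, and CP (the copper protein ceruloplasmin, 3959 to 245 counts), KNG1 (kininogen, 779 to 80 counts) and SERPING1 (C1 inhibitor, 523 to 73 counts) fell the most among genes with at least 50 counts. In Huh7-C, 15 of the 31 listed were down-regulated and 0 up-regulated, against the 4.15% and 4.19% of all genes of the pair, and the median of the 26 with 10 counts was -1.74, against 0.06 for all genes. ORM1 (orosomucoid, 403 to 36 counts), SERPINF2 (antiplasmin, 1572 to 174 counts) and SERPING1 (3710 to 549 counts) fell the most, and CP (1307 to 1113), ITIH2 (780 to 625) and APOH (105 to 71) had the highest ratios without a call. All 23 carriers that reached 10 counts in both pairs had a ratio below 0 in the Huh7 pair, opposite in sign to ALB, and 46.5% of all genes of the pair did. In the Hep3B pair 14 of the 23 had a ratio above 0, while 64.8% of all genes lay below 0. ORM1 and its near-identical copy ORM2 share reads, so their separate counts are uncertain. SERPINA1 also has a close copy in its cluster, and how reads shared by copies were counted is not given in the sources used here.

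The members' neighbours on the chromosomes were read next, with positions in GRCh38 from GENCODE 29. ALB (chr4:73397114-73421412) and GC (chr4:71741693-71804041) lie in the albumin family locus of chromosome 4 with AFP and AFM. AFP, the fetal counterpart of albumin, had 16175 counts in Hep3B and 4201 in Hep3B-C, against 26 in Huh7 and 12 in Huh7-C. Like GC and unlike ALB, it was down-regulated in Hep3B-C, and all 3 were lower in the Huh7 lineage than in the Hep3B lineage. AFM had 9 counts in Hep3B-C and 0 elsewhere. SERPINA1 (chr14:94376747-94390693) and SERPINA3 (chr14:94612377-94624055) lie in the serpin cluster of chromosome 14, of which 7 of 11 genes were in the files. Of these 7, 6 were down-regulated and 0 up-regulated in Huh7-C, while 2 were up-regulated (SERPINA1 and SERPINA11) and 1 was down-regulated (SERPINA5, 979 to 252 counts) in Hep3B-C. Over all genes 4.15% were down-regulated and 4.19% up-regulated in the Huh7 pair, and 13.2% up-regulated and 30.4% down-regulated in the Hep3B pair. With both trends removed, 1 serpin was up-regulated and 2 were down-regulated in the Hep3B pair. In that fit 680 genes of the pair were up-regulated and 3505 down-regulated in all. SERPINA5, the protein C inhibitor, also went from 21 counts in Huh7 to 0 in Huh7-C.

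AHSG (chr3:186612923-186621318) and FETUB (chr3:186635969-186653141) are neighbours of HRG and KNG1 on chromosome 3. KNG1 was down-regulated in both HCSC cultures, with 779 and 80 counts in the Hep3B pair and 95 and 20 in the Huh7 pair, whereas AHSG was down-regulated in Huh7-C alone. HRG had at most 6 counts. TTR (chr18:31557010-31599021), RBP4 (chr10:93591687-93601744) and AMBP (chr9:114060127-114078472) are each the only member of the set on their chromosome. Their other neighbours were not listed. A1BG (chr19:58345178-58353499) overlaps the antisense gene A1BG-AS1, which had 1 to 4 counts per library, and without strand information the reads of the overlapping part could not be told apart.

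Some partners of the members were also measured. Among genes of retinol transport, STRA6, the retinol-binding protein receptor, had 26 counts in Hep3B, 70 in Hep3B-C and 0 in both cultures of the Huh7 lineage. It was not called in the Hep3B pair, in which RBP4 and TTR rose. ITIH1 followed AMBP in both pairs, with 6 to 154 counts in the Hep3B pair and 37 to 2 in the Huh7 pair, but the more abundant heavy chain ITIH2 was not called in either (1817 to 2478 and 780 to 625 counts). MAN1B1, a mannosidase of the glycoprotein quality control that antitrypsin passes through, was up-regulated in Hep3B-C (130 to 441 counts) and had 534 and 485 counts in the Huh7 pair. LMAN1, a cargo receptor that takes antitrypsin out of the endoplasmic reticulum, was down-regulated in Hep3B-C (901 to 609 counts) where SERPINA1 rose, and had 793 and 807 counts in Huh7 and Huh7-C. With both trends removed neither was called in the Hep3B pair, at -0.14 for MAN1B1 and 0.11 for LMAN1 on the log2 scale. FCGRT, the heavy chain of the receptor that recycles albumin, was not called in either pair (268 to 838 and 298 to 167 counts). In the Hep3B pair the log2 fold-change was 0.73 for STRA6 and 0.96 for FCGRT, and -0.50 and -0.51 with both trends removed. TMM raised every value of that pair by 0.60, so the absence of a call there depended on the scaling.

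Of the 15 liver transcription factors listed, 4 were up-regulated and 6 down-regulated in Hep3B-C, against 13.2% and 30.4% of all genes of the pair, with a median log2 fold-change of -0.30. With the trends in G+C content and length removed, 1 was up-regulated and 8 were down-regulated, and the median was -1.34. In that fit 680 genes of the pair were up-regulated and 3505 down-regulated in all. The median of all genes with at least 10 counts was -0.48. In Huh7-C 0 were up-regulated and 2 down-regulated, against 4.19% and 4.15% of all genes, with a median of -0.43. HNF4A had 585, 1362, 1726 and 1159 counts and was not called in either pair with library sizes as total gene counts. Its log2 fold-change in the Hep3B pair was 0.54, and -0.38 with both trends removed. TMM raised every value of that pair by 0.60. FOXA3 (103 to 601 counts), TEF (19 to 103) and CEBPB (27 to 144) had the highest ratios in Hep3B-C, and ONECUT1 (269 to 22), NR5A2 (366 to 73) and HLF (132 to 34) the lowest. In Huh7-C, HLF (469 to 103) and CEBPA (462 to 154) were down-regulated, and PROX1 (157 to 131) and FOXA3 (280 to 227) were among those with the highest ratios, without a call. Per length HNF4A was highest in Huh7 (117 RPKM) and lowest in Hep3B (62.4 RPKM), whereas ALB was lowest in Huh7 and highest in Hep3B.

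For the most abundant members, the genes with the most similar profile over the 4 libraries were sought among 8068 genes with at least 100 counts in 1 library, by the root mean square difference of centred log2 CPM. Nearest to ALB were SPON2 (0.44), MGST1 (0.45) and BGN (0.49), all of which had at most 15 counts in each culture of the Huh7 lineage. GLTPD2 (0.09), ROMO1 (0.11) and CHCHD5 (0.12) were nearest to SERPINA1, each highest in Huh7 and lowest in Hep3B. Over 4 libraries such likeness is a description only.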

How the data were processed

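RNA-seq of 4 hepatoma cultures, 1 library each, used an Illumina Genome Analyzer II. The authors filtered the reads, aligned them to NCBI Build 36.1 with NextGENe and deposited a raw read count and length per gene; annotation, strand setting and treatment of reads with several matches are not given in the sources used here. Each HCSC library was joined to its parental line by name, and the departures of the 2 Hep3B lineage libraries from the average of their group had a correlation of 0.584, which is the pairing behind the block.

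Totals were sums of gene counts. Log2 ratios had 0.5 added to each count and Poisson standard errors; CPM, RPKM and 95% intervals cover counting error only. The thresholds of the pair test follow the study's methods, which name a Poisson-based test; its Audic-Claverie form and the added 0.5 were chosen here. edgeR 4.0.16 (TMM, filterByExpr, quasi-likelihood test, Benjamini-Hochberg FDR 0.05) was fitted to all 4 libraries, with DESeq2 1.42.0 as an alternative, and adjusted p-values run over all genes of a fit. Trends in G+C content (known for 97.9% of genes) and length were removed by lowess (fraction 0.3). The pair test and the edgeR fit were run on simulated data with less spread than the edgeR fit found here. These runs checked the code and give no error rates for these data. G+C content and positions come from GENCODE 29.

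All 10 members were named. From the carriers and transcription factors, up to 3 genes with the highest and 3 with the lowest ratio per pair were named among those with at least 50 counts; HNF4A, chromosomal neighbours and partners were added, and some listed genes are not reported here. Members and lists were chosen with earlier results of these data known.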

Additional observations from a re-analysis of the deposited data

Results flagged for a closer look

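For 5 genes the log2 fold-change of HCSCs over HCC cells had opposite signs in the 2 parental lines, and the difference passed its test. The test used the Poisson error of 4 counts with Benjamini-Hochberg adjustment over 13917 genes. Of these, 39.9% passed with a difference of at least 1, whatever the signs. The share that also had opposite signs was not computed. The difference, Hep3B pair minus Huh7 pair, was 4.96 for RBP4, 4.13 for AHSG, 3.55 for AMBP, 2.64 for SERPINA1 and -1.41 for ALB. For ALB the sign in the Hep3B pair (-0.08) became positive (0.51) under TMM scaling, so its opposite signs depended on the scaling. AHSG changed sign in the Hep3B pair with the trends in G+C content and length removed (-0.54), whereas RBP4 and SERPINA1 kept opposite signs in that fit and AMBP was at 0.00015 in the Hep3B pair. Each direction rested on 1 library per culture.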

How the results depend on the processing

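Of 140 values of single genes under the alternatives, 126 kept their side of the threshold, 9 lost it, 4 gained it and 1 called value changed direction, TTR in the Hep3B pair with the length trend removed (-0.014). Changes of sign in values that were not called (ALB, SERPINA3, FETUB and AHSG in the Hep3B pair) are not counted here. The 140 values include those of genes not called in the main test. They leave out some alternatives, among them an assumed biological coefficient of variation of 0.4, under which no member was called in either pair. The 5 up-regulated genes of Hep3B-C became 6 with TMM or DESeq2 size factors and 4 with 5 added to each count. TTR lost its call in the latter, at 0.99. The number was 3 with the length trend removed, 2 with both trends removed and 0 with the assumed biological coefficient of variation of 0.4. The 1 down-regulated gene became 0 with TMM, DESeq2 size factors or that coefficient, and 2 with the length trend or both trends removed. The median of 0.88 became 1.47 with TMM, 1.56 with DESeq2 size factors, -0.022 with the length trend removed and 0.18 with both. In Huh7-C the 1 up-regulated and the 5 down-regulated genes both became 0 with the assumed coefficient. An assumed coefficient stands in for the unmeasured spread between cultures; the cause of the other changes was not tested.

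Without the replicate block that pairs each HCSC culture with its parental line, edgeR again called 0 members, its biological coefficient of variation rose from 0.514 to 0.754, and its calls over all genes went from 4 up and 5 down to 0. When each library was left out in turn, the members down-regulated in HCSCs, in fits without the block, ranged from 0 to 1 (GC, without Hep3B-C), and those lower in the Huh7 lineage, in fits with lineage as the only term, from 1 to 5. In these fits a lone library was assumed to vary like the other group. With lineage as the only term and all libraries 4 were lower, AHSG being lost. The median of the mean log2 fold-change ranged from -1.54 to 0.88 when a library, and with it its pair, was left out.

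The summed shares in Hep3B, Hep3B-C, Huh7 and Huh7-C were 4.37, 6.73, 4.85 and 2.03% of the count without the 20 most abundant other genes and 4.27, 4.81, 2.52 and 1.06% of length-scaled counts. Without ALB they were 1.90, 4.01 and 1.77% in Hep3B, Hep3B-C and Huh7-C, and without SERPINA1 2.84, 3.16, 0.292 and 0.0677%. Without both they were 0.886, 1.32, 0.282 and 0.0410%. A library total of only the genes listed in both pairs, also chosen after seeing the data, changed no call of a member. Depth limited FETUB, and in the Huh7 lineage GC, TTR and A1BG.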
